A study of Mus musculus with 6 samples.

Results

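The vascular endothelial growth factor (VEGF) genes were followed through orthotopic pancreatic tumours, from the cells that held the ligand transcripts to those that held the receptors. The 9 genes, chosen by symbol from the 32285 genes in the count files, were the ligands Vegfa, Vegfb, Vegfc and Pgf, the receptor tyrosine kinases Flt1, Kdr and Flt4, and the co-receptors Nrp1 and Nrp2. The tumours arose from KPC cells placed in the pancreas of C57BL/6 mice. KPC cells are mouse pancreatic cancer cells from a genetic model driven by Pdx1-Cre, which acts in the pancreas. Before injection they had received the control vector (OE-Vector) or a construct for MLKL overexpression (OE-MLKL), so only the injected cells, and not the host's vessels or immune cells, differed by design. The labels name 6 tumours. The matrices of OE-Vector 1 and of OE-MLKL 1, 2 and 3 were analysed, and those of OE-Vector 2 and 3 were not analysed here. The ages of the mice are not given in the labels.

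Vegfa, the main angiogenic factor, is induced by hypoxia and signals chiefly through Kdr (VEGFR2) on endothelial cells. Flt1 (VEGFR1) binds Vegfa, Vegfb and Pgf and can act as a decoy, while Flt4 (VEGFR3) is the receptor of Vegfc and marks lymphatic and sprouting endothelium. The neuropilins Nrp1 and Nrp2 bind both VEGF and class 3 semaphorins and are made by many other cells, including carcinoma cells and some T cells. Pancreatic cancer is known for dense stroma and sparse vessels, so few endothelial cells are usually recovered from it.

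Single-cell 3' libraries held 150591289 to 169978362 UMIs each, a UMI being a tag that counts 1 captured transcript. A total of 74545 cells passed the filters, 15382 to 23063 in each library, with median depths of 1983 to 5287 UMIs. Of 73935 distinct cell barcodes 605 occurred in more than 1 library (0.818%). Mlkl, the overexpressed gene, was at 16.1 UMIs per 1000000 UMIs of the cells summed (CPM) in cancer-like cells of OE-Vector 1 and at 8.32, 13.1 and 20.5 CPM in OE-MLKL 1, 2 and 3. The targeted gene thus gave no check of the labels, since OE-Vector 1 lay between the OE-MLKL libraries, and groups are named below as labelled. The files do not show whether the construct's RNA would be counted as Mlkl. Levels are in CPM, and are compared within a gene, since 3' counts of different genes need not be captured alike. They do not separate the isoforms of Vegfa or soluble from membrane-bound Flt1.

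Endothelial cells were gated on at least 2 UMIs of Pecam1 and Cdh5 together, and 289 cells of OE-Vector 1 and 40, 81 and 172 cells of OE-MLKL 1, 2 and 3 passed. The gate was not pure. Its 2 parts were cells with both transcripts (60, 22, 51 and 52 cells in the same order) and cells with Pecam1 but no Cdh5 (224, 17, 26 and 118 cells), with 1 to 5 cells per library holding Cdh5 alone. The summed level of 12 endothelial genes fixed as a check, among them Tie1, Tek, Cldn5 and Emcn, was 3735 CPM in the cells with both transcripts of OE-Vector 1 and 4218, 6179 and 3166 CPM in those of OE-MLKL 1, 2 and 3. In the Pecam1-only cells it was 31.3, 137, 125 and 26.9 CPM, close to the 14.8 to 22.1 CPM of all cells outside the gate for OE-Vector 1 and OE-MLKL 3. A UMI of Ptprc, the pan-leukocyte gene, was found in 93.3%, 52.9%, 73.1% and 95.8% of the Pecam1-only cells, against 40.0%, 0%, 9.80% and 42.3% of the cells with both. Of the Pecam1-only cells 65.6% in OE-Vector 1 and 53.4% in OE-MLKL 3 would have scored as macrophage-like. Of the cells with both transcripts 27 of 60 in OE-Vector 1 and 14 of 22, 26 of 51 and 26 of 52 in OE-MLKL 1, 2 and 3 would have scored in none of the other classes, and the rest in one, most often as macrophage-like (21.7%, 18.2%, 17.6% and 21.2%). A UMI of the endothelial check genes was found in 78.3%, 100%, 98.0% and 84.6% of them, and one of 6 immune check genes in 90.0%, 59.1%, 76.5% and 98.1%. Endothelial genes were thus high in the cells with both transcripts, which also held transcripts of other classes, and low in the Pecam1-only cells, so receptor levels are given for each.

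**Figure D1:**
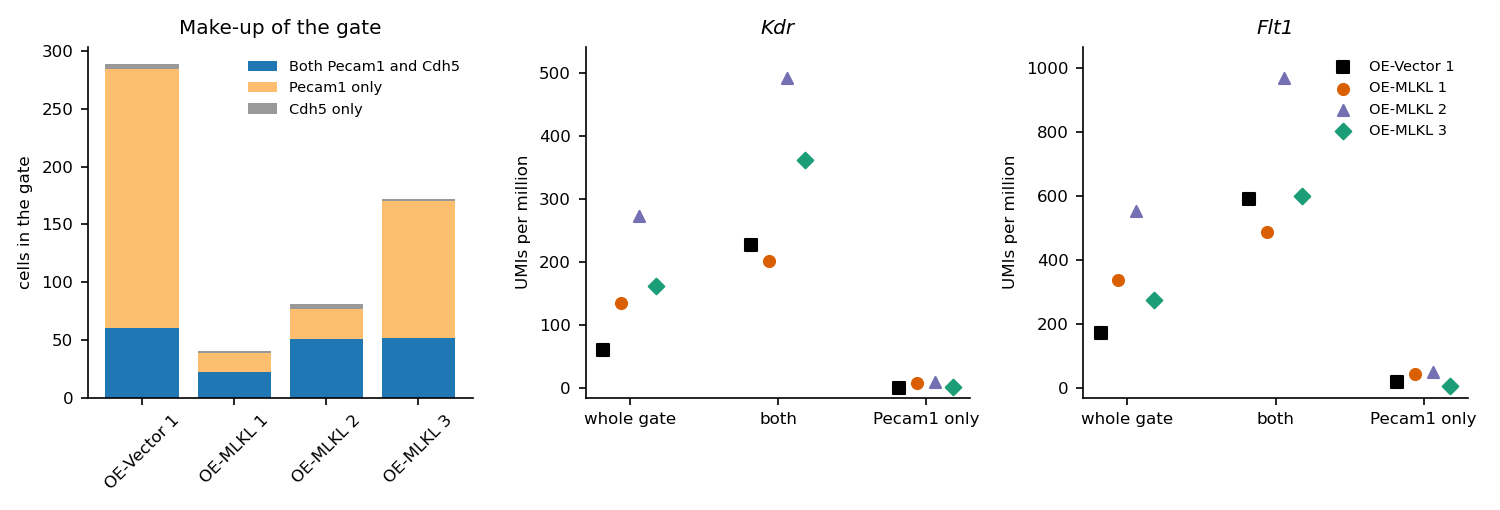
Left, number of cells in the Pecam1 and Cdh5 gate of each library, split by the transcripts that let them pass. Middle and right, Kdr and Flt1 in CPM for the whole gate, the cells with both transcripts and the Pecam1-only cells, with 1 point per library. Pecam1-only cells make up most of the gate in OE-Vector 1 (224 of 289 cells) and OE-MLKL 3 (118 of 172), and hold little Kdr or Flt1.

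Because Kdr, Flt1 and Flt4 were the members most concentrated in these cells, the 250 bases before the RefSeq start of each are shown (GRCm38.p6), from 5' to 3' on the strand of the gene. Capitals mark GGAAG or its reverse complement CTTCC, a form of the GGAA core bound by ETS factors, a family known to act in endothelial genes. Other forms of that core in these windows are not marked. The regions are chr5:75978456-75978705 on the minus strand for Kdr, chr5:147726012-147726261 on the minus strand for Flt1 and chr11:49609429-49609678 on the plus strand for Flt4.
Kdr: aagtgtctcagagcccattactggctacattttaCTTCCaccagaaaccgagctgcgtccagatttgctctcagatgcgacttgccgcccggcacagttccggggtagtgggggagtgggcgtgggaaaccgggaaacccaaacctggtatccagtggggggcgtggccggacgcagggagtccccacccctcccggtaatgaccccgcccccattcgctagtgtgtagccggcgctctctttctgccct
Flt1: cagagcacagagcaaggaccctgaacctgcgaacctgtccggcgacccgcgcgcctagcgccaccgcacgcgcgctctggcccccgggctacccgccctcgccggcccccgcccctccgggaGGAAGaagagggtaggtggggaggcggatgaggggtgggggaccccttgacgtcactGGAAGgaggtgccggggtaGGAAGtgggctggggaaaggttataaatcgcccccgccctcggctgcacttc
Flt4: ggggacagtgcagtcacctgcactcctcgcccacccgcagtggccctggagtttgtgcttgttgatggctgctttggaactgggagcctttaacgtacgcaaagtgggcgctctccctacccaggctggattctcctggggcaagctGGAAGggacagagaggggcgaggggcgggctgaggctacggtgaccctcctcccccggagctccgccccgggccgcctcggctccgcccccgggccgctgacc
The GGAAG form occurred 1, 3 and 1 times and the GC box (GGGCGG or CCGCCC) 2, 3 and 3 times in these windows, with no base shared between the motifs. Of 32851 promoter windows of that length 64.1% held the GGAAG form and 32.7% the GC box, so neither is particular to these genes. The hypoxia response core (ACGTG or CACGT, found in 16.6% of all windows) was in none of the 3.

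Kdr (chromosome 5, 75932827 to 75978458, GRCm38) was the member with the sharpest contrast between cells. In cells with both endothelial transcripts it stood at 226.5 CPM in OE-Vector 1 (242 UMIs) and at 202, 492 and 362 CPM in OE-MLKL 1, 2 and 3 (43, 185 and 309 UMIs). Pecam1-only cells held 1.07, 9.13, 9.87 and 1.92 CPM, which is 1 to 3 UMIs per library. Cancer-like cells held 0.0616 to 0.136 CPM, with 6 to 9 UMIs among the 2406 to 6876 cells of a library. Between these extremes lay fibroblast-like cells at 9.08 to 90.8 CPM, macrophage-like cells at 0.863 to 1.01 CPM and neutrophil-like cells at 0.314 to 0.678 CPM. The ranges over libraries of these classes and of the cells with both transcripts do not overlap, while that of the Pecam1-only cells meets the fibroblast-like range.

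The 22 to 60 cells with both transcripts gave most Kdr UMIs of their library in OE-Vector 1 (80.9%) and in OE-MLKL 2 (66.8%) and 3 (63.1%), but 14.5% in OE-MLKL 1. There the 194 fibroblast-like cells held 64.3% of the Kdr UMIs, against 3.68% in OE-Vector 1, 15.5% in OE-MLKL 2 and 18.8% in OE-MLKL 3. Fibroblast-like cells with at least 2 UMIs of the mesothelial genes Upk3b and Lrrn4 were few (12, 25, 12 and 22 cells). Their Kdr level was 19.1 CPM in OE-Vector 1 and 218, 58.6 and 120 CPM in OE-MLKL 1, 2 and 3, above that of the other fibroblast-like cells (6.32, 52.1, 34.1 and 30.2 CPM) in all 4 libraries. Kdr UMIs were therefore not limited to gated cells.

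Flt1 (chromosome 5, 147561604 to 147726011) was highest in the same cells but spread more widely. Its level in cells with both transcripts was 591 CPM in OE-Vector 1 and 488, 967 and 599.9 CPM in OE-MLKL 1, 2 and 3. Cancer-like cells had 27.8, 17.9, 34.1 and 41.2 CPM, and fibroblast-like cells lay between, at 60.9 to 102 CPM. Cancer-like cells supplied 57.1%, 63.0%, 62.6% and 50.3% of all Flt1 UMIs. They were 15.6%, 33.6%, 29.8% and 14.1% of cells, at median depths of 12174 to 26322.5 UMIs. They also held the largest part of the UMIs of all genes. These were 72332986 of 131890879 in OE-Vector 1 and 92412192 of 146053058, 97341474 of 154315995 and 59024416 of 139301219 in OE-MLKL 1, 2 and 3. Shares of a gene's UMIs in cancer-like cells, here and below, are to be read beside these values. Neutrophil-like cells (11.8 to 37.2 CPM) overlapped the cancer-like range, as did monocyte-like cells (11.8 to 45.1 CPM), and macrophage-like cells had 7.25 to 15.01 CPM. T and NK cell-like cells were lowest, at 1.69 to 4.52 CPM.

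Most Flt4 UMIs (chromosome 11, 49609263 to 49652739) lay in the gate, which held 77.0%, 62.5%, 65.6% and 57.4% of them. The cells with both transcripts had 44.0 CPM in OE-Vector 1 and 136, 55.8 and 44.5 CPM in OE-MLKL 1, 2 and 3. OE-MLKL 1 stood out with 29 UMIs in 22 cells, and its summed level of the lymphatic genes Prox1, Lyve1 and Pdpn was also the highest, at 577 CPM against 39.3 to 104 CPM in the other libraries. Flt4 was at 1.65 to 6.21 CPM in fibroblast-like cells and at 0 to 2 UMIs per library in cancer-like cells. No Flt4 UMI was found in 525 to 910 T and NK cell-like cells of any library.

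Per cell, a UMI of Kdr was detected in 41 of the 60 cells with both transcripts in OE-Vector 1 and in 17 of 22, 47 of 51 and 40 of 52 in OE-MLKL 1, 2 and 3. For Flt1 the counts were 38, 19, 45 and 41 cells and for Flt4 23, 8, 15 and 18. Most cells with Flt4 also held Kdr (22, 7, 15 and 18 cells), while 10, 3, 9 and 10 of them held a UMI of Prox1 or Lyve1. Median depth in these cells was 6165 to 11909.5 UMIs. T and NK cell-like cells, which should lack Kdr, had a Kdr UMI in 0% to 0.288% of cells at median depths of 2560 to 3555.5 UMIs. At an equal depth of 500 UMIs the expected share with a Kdr UMI was 11.4% to 24.0% in the cells with both transcripts and at most 0.0323% in T and NK cell-like cells.

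The co-receptors had another distribution. Nrp1 (chromosome 8, 128358604 to 128503363, overlapped by Mir1903) was at 226 CPM in cells with both transcripts of OE-Vector 1 and at 183, 319 and 373 CPM in those of OE-MLKL 1, 2 and 3. Cancer-like cells had as much or more, with 360 CPM in OE-Vector 1 and 221, 369.5 and 584 CPM in OE-MLKL 1, 2 and 3, and gave 57.3% to 74.1% of all Nrp1 UMIs. In each of the 4 libraries the cancer-like level was above the level in cells with both transcripts. Macrophage-like cells followed at 141 to 323 CPM, and T and NK cell-like cells had 65.8 to 154 CPM. The T and NK cell-like range lay below the Nrp1 level in barcodes with mostly RNA outside cells, given under Other observations.

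Nrp2 (chromosome 1, 62703285 to 62818695, overlapped by Gm29083 and Gm37121) was nearly even across cancer-like cells (80.2 to 145 CPM), macrophage-like cells (82.4 to 124 CPM) and cells with both transcripts (69.3 to 151 CPM), whose ranges overlap. Neutrophil-like cells (17.0 to 49.0 CPM) and fibroblast-like cells (23.8 to 51.9 CPM) had less, and T and NK cell-like cells had 6.79 to 12.2 CPM. Cancer-like cells supplied 50.6% to 69.3% of all Nrp2 UMIs.

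**Figure D2:**
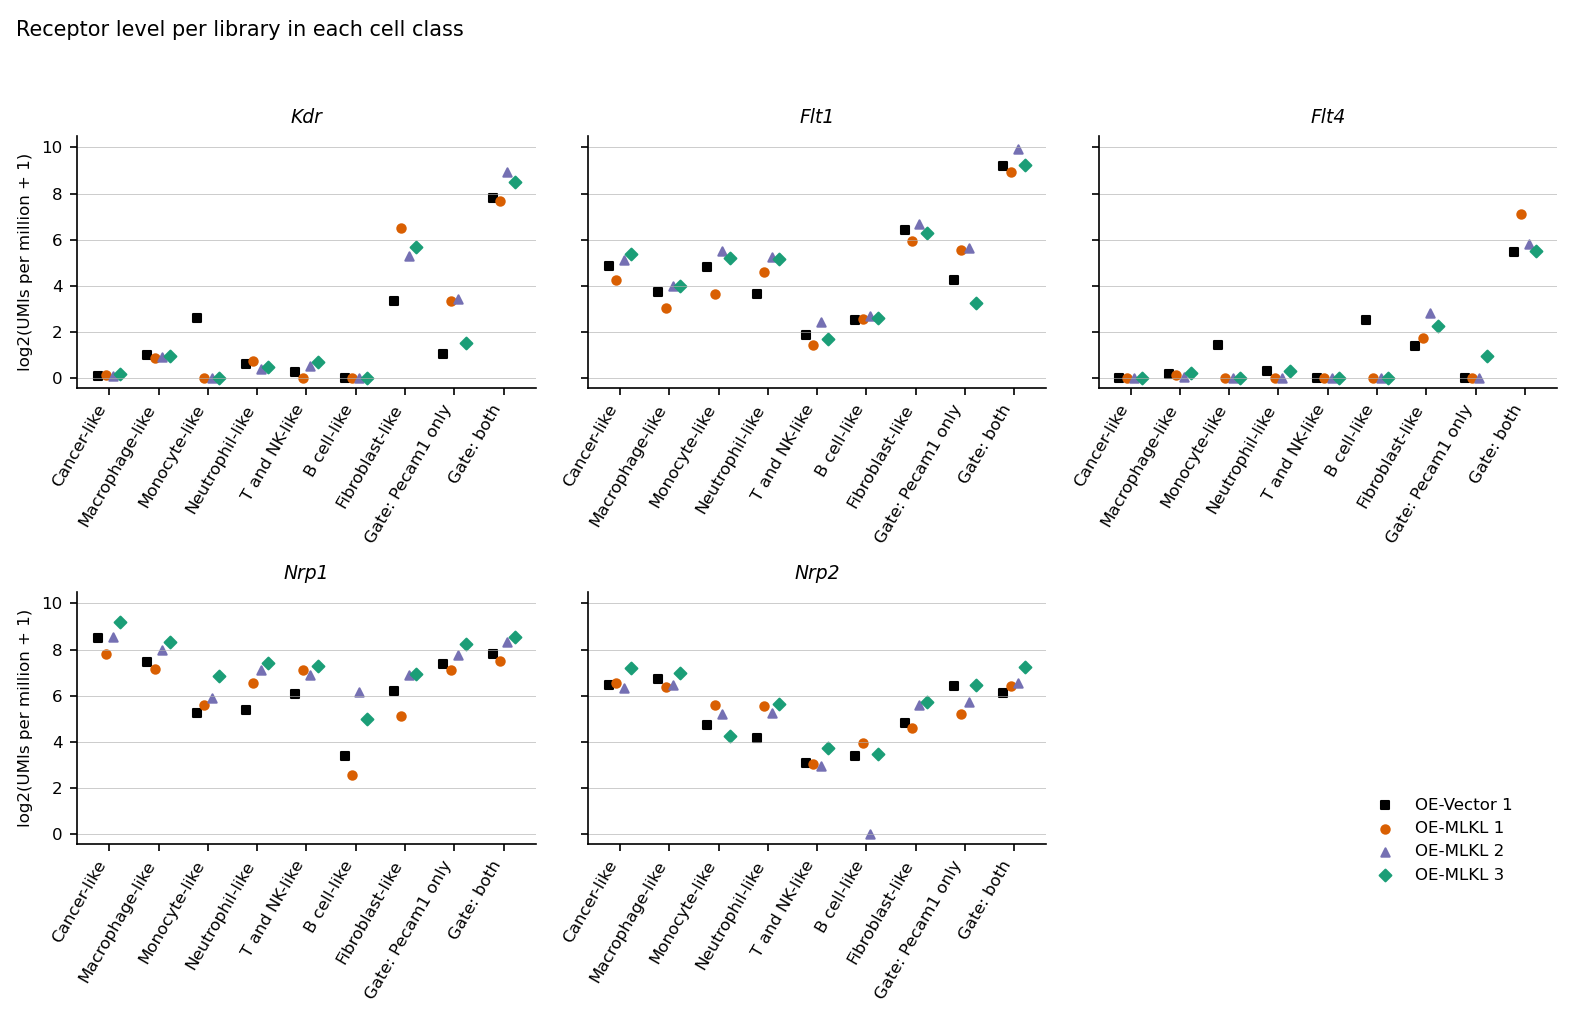
Level of each receptor and co-receptor as log2(CPM + 1), on the vertical axis, by cell class on the horizontal axis, with 1 symbol per library. Kdr, Flt1 and Flt4 peak in gated cells with both transcripts, whereas Nrp1 is higher in cancer-like cells of each library and Nrp2 is of overlapping range in cancer-like and macrophage-like cells and cells with both transcripts.

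Among the ligands, Vegfa (chromosome 17, 46016993 to 46032369) had the largest part of its UMIs in cancer-like cells. The part was 55.6% in OE-Vector 1 and 67.9%, 70.9% and 48.6% in the OE-MLKL libraries. Cancer-like cells also held the largest part of the UMIs of all genes, as given with Flt1, so the share does not set Vegfa apart. Their Vegfa level was 102 CPM in OE-Vector 1 and 58.2, 52.4 and 142 CPM in OE-MLKL 1, 2 and 3. Macrophage-like cells had 119, 35.3, 21.7 and 112 CPM in the same order and gave 18.7%, 7.74%, 5.85% and 17.1% of the UMIs. OE-Vector 1 and OE-MLKL 3 were thus high and OE-MLKL 1 and 2 low in both classes. Median depths were split likewise, at 26322.5, 12628, 12174 and 21697 UMIs in cancer-like cells, in the same order. In macrophage-like cells they were 8278, 4382.5, 5063.5 and 7034.5 UMIs. The part of depth in these levels was not tested.

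The same libraries ranked high and low in neutrophil-like cells (102, 44.98, 36.1 and 87.6 CPM) and in monocyte-like cells (158, 11.8, 31.6 and 82.3 CPM). Median depths were 1219, 756, 788 and 1424 UMIs in neutrophil-like cells, the same split. In monocyte-like cells they were 4058, 3815, 2845 and 3254 UMIs, not the same split. The monocyte-like sums of all genes were small, with 170226 UMIs from 37 cells in OE-MLKL 1 and 221626 UMIs from 64 cells in OE-MLKL 2. The Vegfa levels there thus rest on few UMIs. Barcodes with mostly RNA outside cells, given under Other observations, held more Vegfa than macrophage-like, neutrophil-like and monocyte-like cells of OE-MLKL 1 and 2. Fibroblast-like cells had 63.7 to 66.9 CPM in 3 libraries and 169 CPM in OE-MLKL 3. Vegfa was low in T and NK cell-like cells, at 5.08 to 19.0 CPM. In cells with both endothelial transcripts it was at 13.3 to 57.4 CPM, below the cancer-like level of the same library in each case.

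Pgf (chromosome 12, 85166635 to 85177790), a ligand of Flt1, was highest in the endothelial cells themselves. Cells with both transcripts had 104 CPM in OE-Vector 1 and 150.2, 93.02 and 76.2 CPM in OE-MLKL 1, 2 and 3. Cancer-like cells had 35.1, 24.7, 26.7 and 33.4 CPM and held 62.3% to 76.3% of all Pgf UMIs, beside the largest part of the UMIs of all genes. Macrophage-like cells had 6.03 to 9.45 CPM.

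Vegfc (chromosome 8, 54077606 to 54187096), the lymphangiogenic ligand of Flt4, was sparse and stromal. Fibroblast-like cells held 36.7% to 56.1% of its UMIs at 14.9 CPM in OE-Vector 1 and 7.61, 10.7 and 20.2 CPM in OE-MLKL 1, 2 and 3, from 12 to 37 UMIs per library. Cells with both transcripts had 4.69 to 13.3 CPM from 1 to 9 UMIs. Among the 2406 to 6876 cancer-like cells there were 2 or 3 UMIs per library.

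Vegfb (chromosome 19, 6982473 to 6987651), a ligand of Flt1 with little known angiogenic activity, was the most even of the ligands. It was at 35.5 to 51.7 CPM in cancer-like cells, 29.9 to 32.3 CPM in macrophage-like cells and 24.7 to 36.4 CPM in fibroblast-like cells. Neutrophil-like cells had 8.75 to 24.1 CPM.

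These differences between classes were tested with edgeR's quasi-likelihood test on sums per library and class, with the library as a block and Benjamini-Hochberg adjustment over all genes. The filter on low counts was set over all classes, so a member could be tested in a class through the sums of others. Within cancer-like cells alone Vegfc and Flt4 did not pass the filter. Against the mean of the other classes 7 of the 9 members were higher in the whole gate and 0 lower, where 19.2% of all genes passed. Against cancer-like cells 7 of 9 differed, where 44.5% of all genes did. Vegfc, Pgf, Kdr, Flt1 and Flt4 were higher and Vegfb and Nrp1 lower. Flt1 was higher by 3.34 ± 0.22 (SE) on the log2 scale (adjusted p = 3.35e-13). The adjusted p was 1.65e-15 for Kdr and 3.19e-12 for Flt4, and no fold is given for these since the cancer-like sums were near 0. Pgf was higher by 0.76 ± 0.26 (adjusted p = 0.0185), a call lost with limma-voom (adjusted p = 0.0579) and without OE-MLKL 1 or 2. The calls of Vegfb (-0.60 ± 0.21) and Nrp1 (-0.71 ± 0.25) were each lost under 3 or more alternatives, among them leaving out OE-MLKL 3.

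With the gate restricted to cells with both transcripts, the contrast with cancer-like cells gave 5 higher and 2 lower members, where 36.4% of all genes passed. Pgf was then higher by 1.65 ± 0.24 (adjusted p = 2.84e-06) and Flt1 by 4.37 ± 0.19 (adjusted p = 3.14e-17). Vegfa was lower (-1.35 ± 0.35, adjusted p = 0.00286) and so was Vegfb (-1.02 ± 0.27, adjusted p = 0.0037). Nrp1 (-0.56 ± 0.26, adjusted p = 0.0892) and Nrp2 (-0.13 ± 0.22, adjusted p = 0.685) did not pass. Against the mean of the other classes 7 members were higher and 0 lower, Nrp1 by 1.20 ± 0.20 and Nrp2 by 1.31 ± 0.19, where 28.8% of all genes passed. Other genes of endothelial VEGF biology were compared in the same way. The gate was set on endothelial transcripts, and a gene could pass the filter on low counts through the gate alone. The counts of these lists are therefore a description and no support for the gate. Of the 15 tip cell and VEGF-induced genes 11 were higher than in the mean of the other classes and 1 was lower. They include Plvap, a fenestral diaphragm protein, Esm1 and Apln, secreted tip cell products, and Dll4, the Notch ligand of tip cells. The median log2 difference was 7.12 over the 15, against -0.02 over all genes. Folds of this size, here and in the lists below, rest on low levels in the other classes. Nr4a1, an immediate early gene, was the lower one (-0.89 ± 0.17).

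Of 9 tested genes of the angiopoietin and Notch list 8 were higher and 0 lower (median 6.64), where 28.8% of all genes passed. This list shares Angpt2 and Dll4 with the tip cell list. Tek and Tie1, the angiopoietin receptor and its partner, and Notch4 were among those higher. Of 14 neuropilin partners 7 were higher and 0 lower (median 1.22), including Plxnd1 (3.52 ± 0.14) and Plxna2 (3.55 ± 0.22), semaphorin receptors, and Sema3f (3.24 ± 0.16), a ligand of Nrp2. Of 25 VEGF signalling genes 7 were higher and 5 lower (median -0.06). Nos3, endothelial nitric oxide synthase, was higher by 7.29 ± 0.27, Ptk2, focal adhesion kinase, by 2.26 ± 0.19 and Plcg1, which binds activated Kdr, by 1.36 ± 0.17. Among those lower were Prkcb (-1.68 ± 0.36), Nfatc2, Nfatc1 and Cdc42. Of 13 Vegfa regulators and hypoxia genes 4 were higher, with Epas1, the endothelial hypoxia-inducible factor, at 4.43 ± 0.20, and 1 lower (Vhl).

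Fibroblast-like cells differed from cancer-like cells in 7 of 9 members, where 43.7% of all genes did, with Vegfc, Kdr, Flt1 and Flt4 higher and Pgf, Nrp1 and Nrp2 lower. Nrp1 was lower (-2.11 ± 0.27, adjusted p = 1.39e-07) and so was Nrp2 (-1.36 ± 0.21, adjusted p = 3.87e-06). Flt1 was higher by 1.55 ± 0.21 (adjusted p = 6.25e-07) but by 0.36 without mixed cells (adjusted p = 0.303). The Pgf call (-0.77 ± 0.28, adjusted p = 0.0281) was also lost without mixed cells and in 5 other alternatives. Here and below, without mixed cells means a top class score at least 3 times the second, in place of 1.5. Cells kept can still hold markers of a second class. In the gate it means no UMI of Ptprc, Csf3r, Csf1r or Epcam.

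Macrophage-like cells differed from cancer-like cells in 5 of 9 members, where 62% of all genes did. Pgf was lower (-1.76 ± 0.24, adjusted p = 2.92e-07) and so was Flt1 (-1.10 ± 0.20, adjusted p = 3.17e-05). Nrp1 was lower (-0.63 ± 0.24, adjusted p = 0.0278), a call lost without OE-MLKL 3 (adjusted p = 0.0993). Kdr and Flt4, counted among the 5, were higher at levels of at most 1.01 CPM that rest on few UMIs per library. Within macrophage-like cells alone Flt4 did not pass the filter on low counts. The Flt4 call was lost without OE-MLKL 3 and without mixed cells (adjusted p = 0.0529). In each library Kdr was below its level in the barcodes with mostly RNA outside cells, given under Other observations. The part of such RNA in these calls was not tested. Vegfa (-0.32 ± 0.27, adjusted p = 0.308) and Nrp2 (0.18 ± 0.18, adjusted p = 0.401) did not pass. Without OE-Vector 1 Vegfa (-0.62 ± 0.19, adjusted p = 0.00629) and Vegfb (-0.43 ± 0.15, adjusted p = 0.0167) were called lower.

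Neutrophil-like cells differed in 7 of 9 members, where 73.4% of all genes did. Vegfb (-1.08 ± 0.18), Pgf (-1.23 ± 0.24), Nrp1 (-1.55 ± 0.25) and Nrp2 (-1.14 ± 0.19) were lower, each with an adjusted p of at most 5.79e-05. Vegfc, Kdr and Flt4, counted among the 7, were higher at levels of at most 0.678 CPM that rest on few UMIs per library. Within neutrophil-like cells alone none of these members passed the filter on low counts, so their part of the count rests on the sums of other classes. The Flt4 call was lost without OE-MLKL 3, without OE-Vector 1 and without mixed cells (adjusted p = 0.09). Here too Kdr was below its level in the barcodes with mostly RNA outside cells in each library, and the part of such RNA was not tested. Vegfa (-0.08 ± 0.27, adjusted p = 0.804) and Flt1 (0.11 ± 0.20, adjusted p = 0.642) did not pass.

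Keratin transcripts, markers of the cancer-like class, were also counted in other classes. The summed CPM of Krt8, Krt18, Krt19 and Krt7 in neutrophil-like cells was 232 to 480 CPM, against 979 to 1461 CPM in cancer-like cells. Each member's level was divided by its cancer-like level scaled to the keratin CPM of the class, which gave ratios for Nrp1 in neutrophil-like cells of 0.681, 1.02, 1.13 and 0.924. For Nrp2 the ratios were 1.15, 1.19, 1.42 and 1.07, and for Vegfb 1.48, 1.11, 1.27 and 1.23. Ratios in the other named cases were above 1 in all 4 libraries, for Flt1 (2.53 to 3.33) and Vegfa (1.84 to 6.02) in neutrophil-like cells, for Vegfa (1.68 to 7.65), Nrp1 (2.57 to 3.34) and Nrp2 (3.57 to 7.79) in macrophage-like cells and for Nrp1 in T and NK cell-like cells (2.73 to 9.58). The part of cancer-cell RNA in these levels was not tested, nor was that of RNA outside cells.

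The study compared OE-MLKL with OE-Vector tumours and also asked about VEGFR2 in their endothelial cells. Here 1 library stands against 3, so the spread comes from OE-MLKL tumours alone and is taken to hold for OE-Vector 1, and a difference between groups cannot be told apart from one between tumours. In such sums fewer cells of a type and less RNA per cell cannot be told apart either. Over all cells, the gate and 7 other classes, 55 tests of a member passed the filter on low counts. With edgeR 0 of them were called and 8 had an unadjusted p under 0.05, and DESeq2 and limma-voom also called 0. The share of all genes called by edgeR was 0% over all cells, 0.00895% in the gate, 0.00591% in cancer-like and 0.00685% in macrophage-like cells. It was 0.69% in monocyte-like, 0% in neutrophil-like, 0.00878% in T and NK cell-like, 0.539% in B cell-like and 0.0089% in fibroblast-like cells. DESeq2 called more genes, for example 129 of 19186 over all cells, 8 of 11174 in the gate and 79 of 16908 in cancer-like cells.

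Kdr in the whole gate was at 61.3 CPM in OE-Vector 1 and at 136, 273 and 162 CPM in OE-MLKL 1, 2 and 3 (190.2 ± 73.1, SD, n = 3). The OE-Vector library lay below the range of the others. The log2 fold change of libraries labelled OE-MLKL over OE-Vector was 1.46 ± 0.50, with an unadjusted p of 0.0158 by edgeR and an adjusted p of 0.64. Without OE-MLKL 3 it was 1.62 ± 0.35 with an adjusted p of 9.80e-05, in a fit in which 1112 of 9445 genes were called. In the cells with both transcripts OE-Vector 1 ranked between OE-MLKL 1 and OE-MLKL 3, and the log2 fold change was 0.60 ± 0.52 (adjusted p = 0.9996, where 0.175% of all genes were called). Pecam1-only cells were 224 of 289 gated cells in OE-Vector 1 and 17 of 40, 26 of 81 and 118 of 172 in OE-MLKL 1, 2 and 3. Cells with both transcripts held 1068413 of the 3997275 UMIs of the gate in OE-Vector 1. In OE-MLKL 1, 2 and 3 they held 213116 of 324039, 376267 of 691618 and 853432 of 1924448. The part of this make-up in the whole-gate Kdr difference was not tested. In the cells with both transcripts 0 genes of the 5 lists were called by edgeR, with smallest unadjusted p-values of 0.0238 in the hypoxia list, 0.049 in the tip cell list and 0.129 to 0.194 in the others.

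Flt1 and Flt4 in the whole gate were likewise lowest in OE-Vector 1, and neither difference was called with all libraries. Flt1 was at 172 CPM in OE-Vector 1 and at 336, 552 and 274 CPM in OE-MLKL 1, 2 and 3 (log2 fold change 1.005 ± 0.52, adjusted p = 0.833), and at 0.17 ± 0.51 in the cells with both transcripts. Flt4 gave 1.69 ± 0.81 (adjusted p = 0.799) and 0.70 ± 0.60 in the cells with both transcripts, and the whole-gate value was 0.85 ± 0.57 without OE-MLKL 1. With cells that hold Ptprc, Csf3r, Csf1r or Epcam left out, the fold changes were -0.48 for Flt1 and -0.12 for Flt4. Vegfa in the whole gate was above all OE-MLKL libraries in OE-Vector 1, at 119 CPM against 24.7, 41.9 and 81.6 CPM (-1.36 ± 0.49, adjusted p = 0.654). In the cells with both transcripts, at 56.2 CPM against 32.9, 13.3 and 57.4 CPM, it was not (-0.67 ± 0.53). Without OE-MLKL 3 all 3 whole-gate differences were called (adjusted p = 0.0264 for Flt1, 8.50e-06 for Flt4 and 3.77e-05 for Vegfa).

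The number of gated cells was itself uneven, with 1.88% of cells gated from OE-Vector 1, while the OE-MLKL libraries gave 0.217%, 0.351% and 0.975% (mean 0.514% ± 0.405, SD, n = 3). OE-Vector 1 was highest, with an exact two-sided permutation p of 0.25, the smallest that 1 against 3 libraries allow. Cells with both transcripts made up 0.39% of OE-Vector 1 and 0.119%, 0.221% and 0.295% of the OE-MLKL libraries, with an exact p of 0.5. Recovery of endothelial cells in dissociation was not measured.

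**Figure D3:**
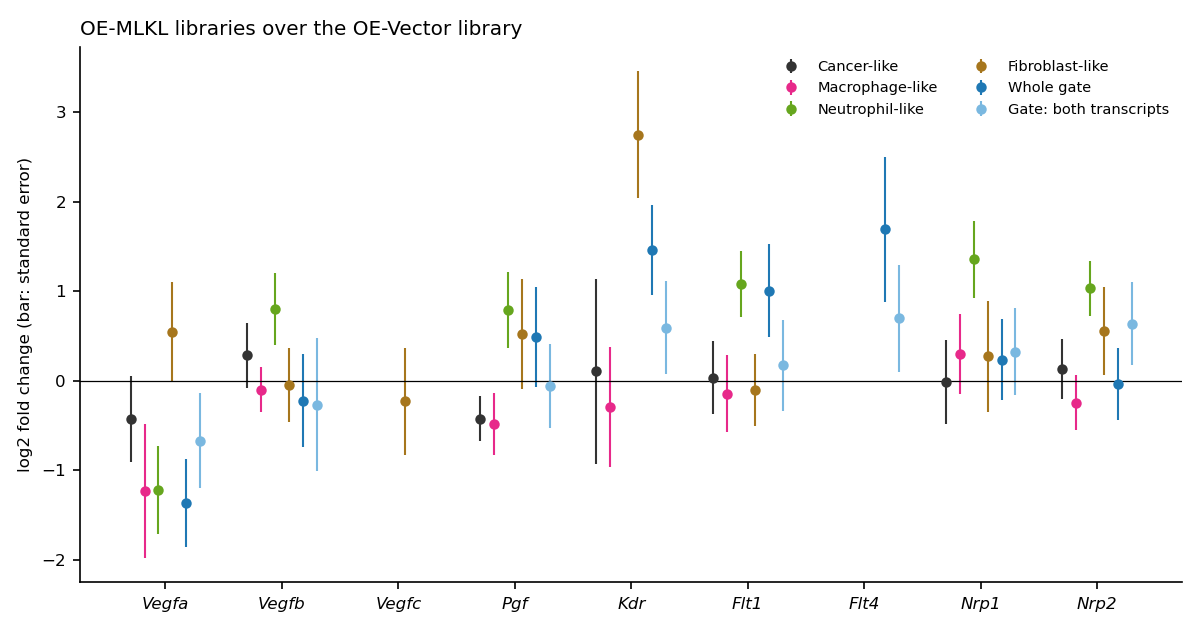
Log2 fold change of the OE-MLKL libraries over the OE-Vector library (vertical axis) for each member (horizontal axis) in 5 classes and in gated cells with both transcripts, by edgeR on 3 against 1 libraries, with bars of 1 standard error. A missing point is a member below the filter on low counts. The Kdr, Flt1 and Flt4 points of the whole gate (1.46, 1.005 and 1.69) lie above those of the cells with both transcripts (0.60, 0.17 and 0.70).

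In cancer-like cells the fold changes of the tested members lay between -0.43 and 0.29, with adjusted p-values of 0.998. Vegfa was at -0.43 ± 0.48 and OE-Vector 1 lay within the OE-MLKL range. Without OE-MLKL 3 it was at -0.88 ± 0.18 (adjusted p = 0.0582). Pgf was highest in OE-Vector 1 (-0.42 ± 0.25). Nrp1 differed by -0.02 ± 0.47 and Nrp2 by 0.13 ± 0.33, each within the spread of the libraries.

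Vegfa in macrophage-like cells (-1.23 ± 0.75, adjusted p = 0.856) and neutrophil-like cells (-1.22 ± 0.49, adjusted p = 0.326) was highest in OE-Vector 1 but did not pass. Monocyte-like cells gave -1.94 ± 0.53, with an adjusted p of 0.0644, from 37 to 137 cells per library. That difference was called with no filter on low genes (adjusted p = 0.0217), in cells of at least 1000 UMIs (0.0498) and without OE-MLKL 3 (6.28e-06), where 64 of 13888, 55 of 5028 and 166 of 4600 genes were called. Leaving out OE-MLKL 3 also called Vegfa in macrophage-like (-2.16, adjusted p = 0.0246) and neutrophil-like cells (-1.68, adjusted p = 0.00381), in fits that called 285 of 14272 and 3228 of 13836 genes.

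Egln3, a HIF prolyl hydroxylase induced by hypoxia, was the gene most like Vegfa over 34 sums per class and library (Pearson r = 0.883 of log2(CPM + 1), among 13820 genes), followed by Tmed7 and Oasl2 (0.855 each). These sums share libraries and depths, so r is a description. Egln3 was at 85.9 CPM in cancer-like cells of OE-Vector 1 and at 26.8, 26.3 and 75.5 CPM in OE-MLKL 1, 2 and 3. In macrophage-like cells it was at 70.7, 18.9, 22.1 and 43.4 CPM. As with Vegfa, OE-Vector 1 and OE-MLKL 3, whose cells of these classes also had the higher median depths, were the high libraries. The summed 13 Vegfa regulators and hypoxia genes did not rank that way in cancer-like cells (1838, 1866, 1943 and 1855 CPM), where Ldha, Pgk1 and Ndrg1 contribute most.

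In macrophage-like cells the summed list was at 2411 CPM in OE-Vector 1 and 1357, 1420 and 1552 CPM in OE-MLKL 1, 2 and 3, with OE-Vector 1 highest. In fibroblast-like cells it was lowest in OE-Vector 1, at 1528 against 1640.5, 1792.5 and 2060.1 CPM. Ndrg1, a hypoxia-induced gene of the list, was lowest in OE-Vector 1 in macrophage-like cells (93.6 against 168, 148 and 106 CPM) and also in cancer-like, neutrophil-like and fibroblast-like cells. Of the 13 genes 0 passed the edgeR test in cancer-like, macrophage-like or neutrophil-like cells, with smallest unadjusted p-values of 0.0566, 0.0003 and 0.0007. In monocyte-like cells Ero1l, an oxidase of the endoplasmic reticulum induced by hypoxia (-2.59 ± 0.48, adjusted p = 0.0029), and Egln3 (-2.35 ± 0.54, adjusted p = 0.0205) were lower in the OE-MLKL libraries as labelled, 2 of 9 tested, where 0.69% of all genes were called. In this class DESeq2 called 3 and limma-voom 1 of all 5069 genes, so limma-voom did not call both.

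**Figure D4:**
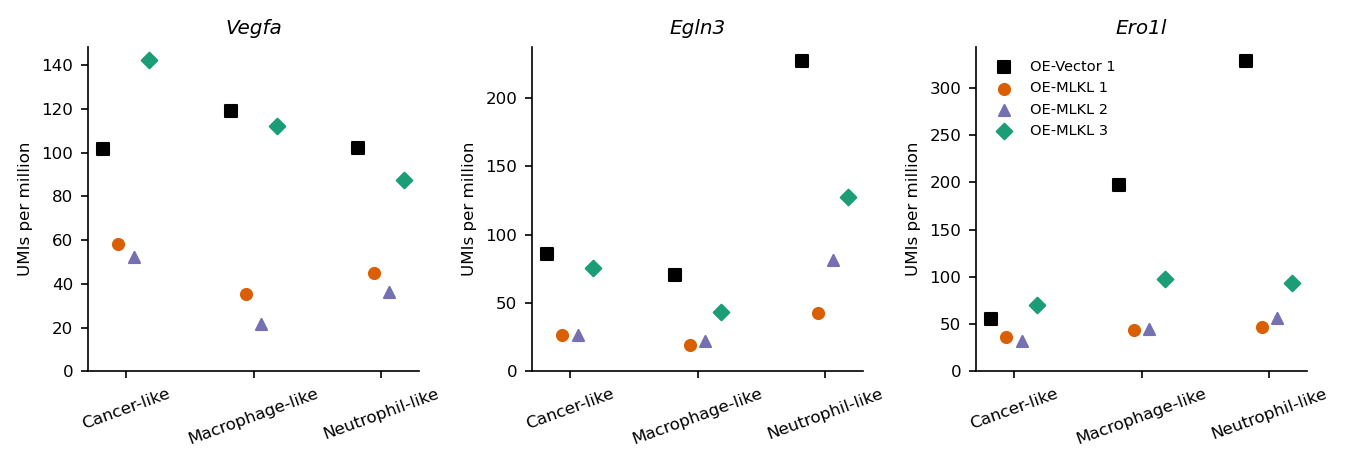
Vegfa, Egln3 and Ero1l in CPM (vertical axes, from 0) in cancer-like, macrophage-like and neutrophil-like cells, with 1 symbol per library. OE-Vector 1 and OE-MLKL 3 lie above OE-MLKL 1 and 2 for all 3 genes in each class. Their median depths in UMIs per cell were also the higher ones in each class.

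Flt1, Nrp1 and Nrp2 were lowest in OE-Vector 1 among neutrophil-like cells. Flt1 was at 11.8 CPM there and at 23.4, 37.2 and 34.7 CPM in OE-MLKL 1, 2 and 3 (1.08 ± 0.37, adjusted p = 0.295). Nrp1 was at 40.8 CPM against 94.1, 138 and 170.5 CPM (1.36 ± 0.43, adjusted p = 0.282) and Nrp2 at 17.0 against 46.7, 37.5 and 49.0 CPM (1.03 ± 0.31, adjusted p = 0.277). Vegfb (0.80 ± 0.40) and Pgf (0.79 ± 0.42) were lowest in OE-Vector 1 as well. Without OE-MLKL 3, where 3228 of 13836 genes were called, Nrp1 (adjusted p = 0.0285), Nrp2 (0.0294) and Vegfb (0.0349) were among them. Keratin CPM in neutrophil-like cells was also lowest in OE-Vector 1, at 232 against 455, 480 and 309 CPM. The part of cancer-cell RNA or of RNA outside cells in these values was not tested. Without mixed cells, a stricter score margin that need not remove keratin transcripts, Flt1 was at 1.21 ± 0.35, Nrp1 at 0.95 ± 0.46 and Nrp2 at 0.49 ± 0.36. Tested against the effect in cancer-like cells of the same libraries, the difference in log2 fold change was 1.40 ± 0.24 for Nrp1 (adjusted p = 0.0549), 1.06 ± 0.26 for Flt1 and -0.80 ± 0.20 for Vegfa (adjusted p = 0.0677 each), and 0 members were called where 0.16% of all genes were. Leaving out OE-MLKL 1 called 3 of them among 1314 of 15243 genes, and leaving out OE-MLKL 3 called 5 among 4059 of 15119. Of 7 members 6 had an unadjusted p under 0.05 in that edgeR test, as had 4105 of 15025 genes. Between macrophage-like and cancer-like cells 0 of 7 members were called where 0% of all genes were, and 1 (Vegfa, -1.001 ± 0.39) had an unadjusted p under 0.05, as had 822 of 14980 genes. Between neutrophil-like and macrophage-like cells 0 of 7 were called (0.00726% of all genes) and 5 had one, as had 2751 of 13769 genes.

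Nrp1 in T and NK cell-like cells was at 65.8 CPM in OE-Vector 1 and at 140, 120 and 154 CPM in OE-MLKL 1, 2 and 3, with OE-Vector 1 lowest (1.03 ± 0.35, adjusted p = 0.836). It was called without OE-MLKL 3 (adjusted p = 0.00158), along with 914 of 10839 genes. Kdr in fibroblast-like cells was lowest in OE-Vector 1 too, at 2.75 ± 0.71 (unadjusted p = 0.00402, adjusted p = 0.869), resting on 11 UMIs in that library against 191, 43 and 92. Its level there was 9.08 CPM against 90.8, 38.2 and 50.2 CPM. It was called with no filter on low genes (adjusted p = 0.000895), along with 114 of 17679 genes.

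By the same measure of likeness the genes closest to Kdr were Sparcl1 (0.957), Nid2 (0.948) and Igfbp3 (0.947), those closest to Pgf were B3gnt3 (0.903), Uaca (0.894) and Sema3f (0.889), and those closest to Nrp2 were Sbf2 (0.905), F11r (0.889) and Lrp5 (0.882).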

How the data were processed

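Dissociated cells of orthotopic tumours were profiled with a droplet 3' kit. The study's methods name v2 chemistry, which was not checked here. The deposited files hold whole-number UMI counts for each gene in each barcode, which the authors had neither filtered nor normalised. The file headers name Cell Ranger 7.1.0 and the submitters' processing notes 2.1.1 with mm10. The study's methods name yet another version with mm10, so the sources differ, and whether intronic reads were counted is not given in the sources used here. Of 6 labelled samples 4 were analysed (1 OE-Vector, 3 OE-MLKL), with 150591289 to 169978362 UMIs each. Per the study's methods each group had 3 mice, so the replicates are tumours of separate animals.

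Barcodes with at least 500 UMIs, more than 200 genes, under 10% mitochondrial and at most 5% haemoglobin UMIs were kept, with no removal of doublets. Cells were classed by marker scores that use no member gene, after the Pecam1 and Cdh5 gate. CPM are UMIs per 1000000 UMIs of a sum. Sums per library and class with at least 20 cells in every library were tested with edgeR 4.0.16 (quasi-likelihood, TMM, filterByExpr, Benjamini-Hochberg at 0.05 over all genes), and also with DESeq2 1.42.0 and limma 3.58.1 (voom), in R 4.3.3 and Python 3.11.15. The minimum of 20 cells was applied to the main classes and not again under the alternatives. The tests were tried on simulated data. Intervals and sparse UMI counts cover counting error only. Promoters and gene positions come from RefSeq (GRCm38.p6) and GENCODE vM21.

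All 9 members were named, with the 3 genes most correlated with each of Vegfa, Pgf, Kdr and Nrp2, and list genes that passed, or else the smallest p of a list. The members and lists were chosen with earlier results of these data known, and the class scores were set on the data. The dendritic cell-like class, with 14 cells in its smallest library, was not tested. Some items of the model and of the gene lists are not reported here.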

Additional observations from a re-analysis of the deposited data

How the results depend on the processing

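Of 168 values of the main results under an alternative, 153 kept their direction and side of the threshold (a count stayed within 1.5 times), 1 passed it newly and 14 counts moved. Of 246 values of single members 219 kept both, 8 passed newly and 19 changed sign, none of them called. Single members cover only the group comparisons in cancer-like, macrophage-like, neutrophil-like and gated cells, where no call existed to be lost. Contrasts between classes enter only as counts of members called, so a lost call can be offset by a gained one. Without OE-Vector 1, for example, the gate against cancer-like cells lost Nrp1 and gained Vegfa. Leaving out OE-MLKL 3 accounts for 9 of the 14 counts, and the cause was not tested. With 1 library at a time left out the number of members called between groups ranged from 0 to 4 in the gate, 0 to 1 in macrophage-like cells, 0 to 1 in monocyte-like, 0 to 4 in neutrophil-like and 0 to 1 in T and NK cell-like cells. It ranged from 3 to 7 between macrophage-like and cancer-like cells. The members whose group effect differed between classes ranged from 0 to 1 (macrophage-like against cancer-like cells), 0 to 5 (neutrophil-like against cancer-like) and 0 to 5 (neutrophil-like against macrophage-like). Scaling by library size alone gave 3 such members for neutrophil-like against cancer-like cells, namely Flt1, Nrp1 and Nrp2. With no filter on low genes 1 member was called in monocyte-like and 1 in fibroblast-like cells, and in cells of at least 1000 UMIs (and more than 500 genes) 1 was called in monocyte-like cells. Kdr in the gate ranged from 1.12 to 1.62 with 1 library left out.

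The adjusted p of every value that changed sign was 0.564 or more. In the gate, Nrp2 was at 0.15 with scaling by library size, 0.55 without mixed cells and 0.64 in cells with both transcripts, and at -0.26 to 0.081 with 1 library left out. Pgf was at -1.12 without mixed cells and -0.060 in cells with both transcripts, and Flt1 and Flt4 were at -0.48 and -0.12 without mixed cells. In cancer-like cells Nrp1 was at 0.12 with scaling by library size and 0.054 without mixed cells, and at -0.29 to 0.24 with 1 library left out. Flt1 was at -0.027 with limma-voom, -0.21 without mixed cells and -0.10 to 0.29 with 1 library left out, and Nrp2 at -0.039 to 0.27. In macrophage-like cells Vegfb was at 0.030 with scaling by library size, and Flt1 at -0.30 to 0.11 with 1 library left out. The share of cells in the gate, OE-MLKL mean minus OE-Vector 1, was -1.36 percentage points, -0.178 for cells with both transcripts, -0.0603 without mixed cells and -1.61 in cells of at least 1000 UMIs. Vegfc could not be tested between classes without mixed cells. No paired analysis was possible because the groups analysed share only replicate number 1. Depth limits Vegfc, Flt4 and, outside the gate and fibroblast-like cells, Kdr, which rest on few UMIs per library. It also limits Vegfa in monocyte-like cells of OE-MLKL 1 and 2.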

Other observations

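Barcodes of 100 UMIs or fewer, which hold mostly RNA outside cells, carried Kdr at 2.87 CPM in OE-Vector 1 and at 0.961, 1.44 and 1.30 CPM in OE-MLKL 1, 2 and 3. In each library that was above the level in its macrophage-like cells (1.01 CPM in OE-Vector 1 and 0.863, 0.877 and 0.948 CPM in the others). Nrp1 in these barcodes was at 164 to 286 CPM and Vegfa at 76.3 to 141 CPM. This Nrp1 range lay above that of T and NK cell-like cells and overlapped those of neutrophil-like and macrophage-like cells. For Vegfa the range lay above the macrophage-like, neutrophil-like and monocyte-like levels of OE-MLKL 1 and 2. The part of such RNA in those levels was not tested.

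The platelet genes Pf4, Ppbp, Itga2b and Gp9 summed to 1620 CPM in the whole gate of OE-Vector 1 and to 9.26, 76.6 and 124 CPM in OE-MLKL 1, 2 and 3. In the Pecam1-only cells of OE-Vector 1 they summed to 2203 CPM, with a UMI in 68.8% of cells, and in its cells with both transcripts to 254 CPM. Pf4 is also made by some macrophages. The acinar check genes summed to at most 30.9 CPM in the whole gate of any library.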
